A study of Mus musculus with 6 samples.

Results

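The genes described are 47 genes of the cell division cycle, followed in epididymal white adipose tissue (WAT) of male C57BL/6 mice with and without timed sleep restriction (TSR). They were listed by symbol: 16 genes of DNA replication and nucleotide supply, 25 genes of mitosis and 6 regulators of G1 and of entry into S phase. All probe sets annotated to exactly 1 of these symbols were taken. This gave 90 probe sets for 46 of the 47 genes, out of 20380 probe sets for 12393 genes with a single symbol on the array. Ccnb1 (cyclin B1) had no such probe set, so 24 mitosis genes were measured. The 3 TSR arrays came from wild-type mice kept awake by gentle handling during the first 6 h of the light phase on 5 successive days. The 3 control arrays came from undisturbed mice of the same strain, and both groups were sampled in the middle of the dark phase, at Zeitgeber time (ZT) 18. The labels do not say whether an array carries 1 mouse or a pool, so p-values here speak only of how far these arrays scatter, which may be technical, and with 3 per group the precision is limited.

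A dividing cell copies its DNA in S phase and separates the copies in mitosis. D-type and E-type cyclins drive the step from G1 into S phase, E2F factors switch on the replication genes, and the mitosis genes follow later in G2, through FOXM1 and the MuvB complexes. Mature adipocytes do not divide, so dividing cells in adult fat are found mainly among macrophages, other immune cells and progenitors of the stroma.

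Promoter sequence is shown for 6 genes, because the replication and mitosis genes are known to be read through different promoter letters. The cell cycle homology region (CHR, letters TTTGAA) is bound by MuvB complexes, the CCAAT box (letters CCAAT) by NF-Y, and the sites TTTCCCGC, TTTCGCGC, TTTGCCGC and TTTGGCGC by E2F factors. RefSeq promoters of the GRCm38.p6 build were found for 37 of the 47 genes in 43 records, each 250 bases before and 50 bases after a gene start, and were searched on both strands. The 250 bases before the start are printed 5′ to 3′ along the gene, with every match on either strand in capitals. The first 4 are mitosis genes, on chr7:135716380-135716629 (minus strand), chr11:99024190-99024439 (minus), chr10:69352913-69353162 (minus) and chr2:164769679-164769928 (plus), in the order printed. The last 2 are replication genes, on chr1:128359706-128359955 (minus) and chr12:24708004-24708253 (plus).
Mki67: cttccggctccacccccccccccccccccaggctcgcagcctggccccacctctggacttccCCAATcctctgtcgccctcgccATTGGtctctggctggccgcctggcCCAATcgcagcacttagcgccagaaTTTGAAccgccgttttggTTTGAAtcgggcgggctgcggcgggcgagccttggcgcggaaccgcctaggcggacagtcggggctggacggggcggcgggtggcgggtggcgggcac
Top2a: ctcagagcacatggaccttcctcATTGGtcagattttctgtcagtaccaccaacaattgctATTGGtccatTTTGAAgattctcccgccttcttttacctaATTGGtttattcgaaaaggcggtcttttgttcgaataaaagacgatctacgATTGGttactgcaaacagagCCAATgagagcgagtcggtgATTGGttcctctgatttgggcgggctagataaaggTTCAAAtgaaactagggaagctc
Cdk1: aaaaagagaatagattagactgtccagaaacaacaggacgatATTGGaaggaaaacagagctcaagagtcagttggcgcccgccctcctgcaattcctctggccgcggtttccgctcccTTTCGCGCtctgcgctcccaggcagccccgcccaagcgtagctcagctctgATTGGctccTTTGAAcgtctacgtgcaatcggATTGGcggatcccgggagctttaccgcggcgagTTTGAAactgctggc
Ube2c: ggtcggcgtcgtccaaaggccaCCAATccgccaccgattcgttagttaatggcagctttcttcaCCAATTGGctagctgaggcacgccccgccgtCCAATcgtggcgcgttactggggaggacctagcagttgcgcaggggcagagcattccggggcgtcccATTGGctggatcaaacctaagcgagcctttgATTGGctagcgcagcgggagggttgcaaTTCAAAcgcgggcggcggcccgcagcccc
Mcm6: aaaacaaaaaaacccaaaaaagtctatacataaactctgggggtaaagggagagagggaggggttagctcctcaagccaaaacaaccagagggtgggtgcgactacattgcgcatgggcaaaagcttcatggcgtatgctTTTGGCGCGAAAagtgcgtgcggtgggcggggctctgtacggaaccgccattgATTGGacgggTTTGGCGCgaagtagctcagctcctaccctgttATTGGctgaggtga
Rrm2: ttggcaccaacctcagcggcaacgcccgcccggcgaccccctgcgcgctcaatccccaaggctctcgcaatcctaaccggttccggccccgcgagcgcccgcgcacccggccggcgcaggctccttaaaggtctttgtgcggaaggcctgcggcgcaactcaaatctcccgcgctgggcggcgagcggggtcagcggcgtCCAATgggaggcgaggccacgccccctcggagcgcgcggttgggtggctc

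In the Mki67 promoter both TTTGAA matches lie behind a CCAAT box, at positions -116 and -98 from the gene start. Cdk1 holds TTTGAA at -71 and -15, and it was the only 1 of the 20 mitosis genes with a promoter record that also held an E2F match, at -131. In Mcm6 the first 2 E2F matches overlap, at -110 and -106, and no CHR match was found. In Rrm2 the only match was CCAAT at -50, so no E2F letters were found. In Ube2c the matches at -186 and -183 are the same CCAAT letters read on opposite strands and overlap.

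Of the 20 mitosis genes with a record, 15 (75%) held TTTGAA, 18 (90%) held CCAAT and 15 (75%) held both in 1 record. Among all 27025 genes of the promoter table these shares were 20.2%, 41.1% and 7.97%. E2F letters were found in 7 of 14 replication genes (50%) and in 2.6% of all genes. Among the 6984 tested genes with a record the shares were 13.9% for TTTGAA, 42.7% for CCAAT, 5.31% for both and 4.85% for E2F letters. TTTGAA was found in 2 of 14 replication genes (14.3%). Counted over single promoters of the same 300 bases, 17.9% of all 32851 held TTTGAA, 37.4% CCAAT, 2.26% E2F letters and 6.95% both TTTGAA and CCAAT. The matches describe letters in this window and show no binding.

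Signals were compared as deposited, as MAS5 intensities on a log2 scale. Probe sets with a mean in the lowest 35% (below a signal of 43.8) were left out of the test, and "passed the test" means a limma adjusted p under 0.05 over the remaining 14707 probe sets. Each gene was read by its brightest probe set. Much of this transcriptome differed after TSR: 3082 probe sets were lower (21.0%) and 3768 higher (25.6%), and with each array centred on its median the split was 4363 lower and 2452 higher. By gene, 1980 of 8619 tested genes were lower (23.0%) and 2069 higher (24.0%). Arrays correlated at 0.967 to 0.971 within groups and at 0.953 to 0.957 between groups. Hepatocyte markers also moved with the groups: all 18 measured were higher in TSR without the filter. Their summed signal was 553 to 676 in control and 14229 to 14790 in TSR. For actin, the control probe sets at the 5′ end minus those at the 3′ end gave a log2 value of -1.22 ± 0.012 (SD, n = 3) in control and -0.67 ± 0.0013 in TSR, and for Gapdh of -0.52 ± 0.066 and 0.13 ± 0.054. The source of the hepatocyte transcripts was not tested, nor was their part or that of RNA quality in the values below.

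Most cell cycle genes that passed the test fell after TSR. Of the 46 measured members 31 passed the filter, and of these 19 fell, 2 rose and 10 did not pass the test, beside 23.0% lower and 24.0% higher over all genes. In 27 of the 46 members every TSR array lay below every control array, and in 2 every TSR array lay above. Over all genes these shares were 21.5% and 23.4%. Without the filter the test called 19 members lower and 2 higher, beside 14.4% and 16.2% of all 12393 genes. The median log2 difference, TSR minus control, was -0.54 over the 46 members and 0.02 over all measured genes. By probe set, 26 of the 52 tested were lower and 6 higher.

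**Figure D1:**
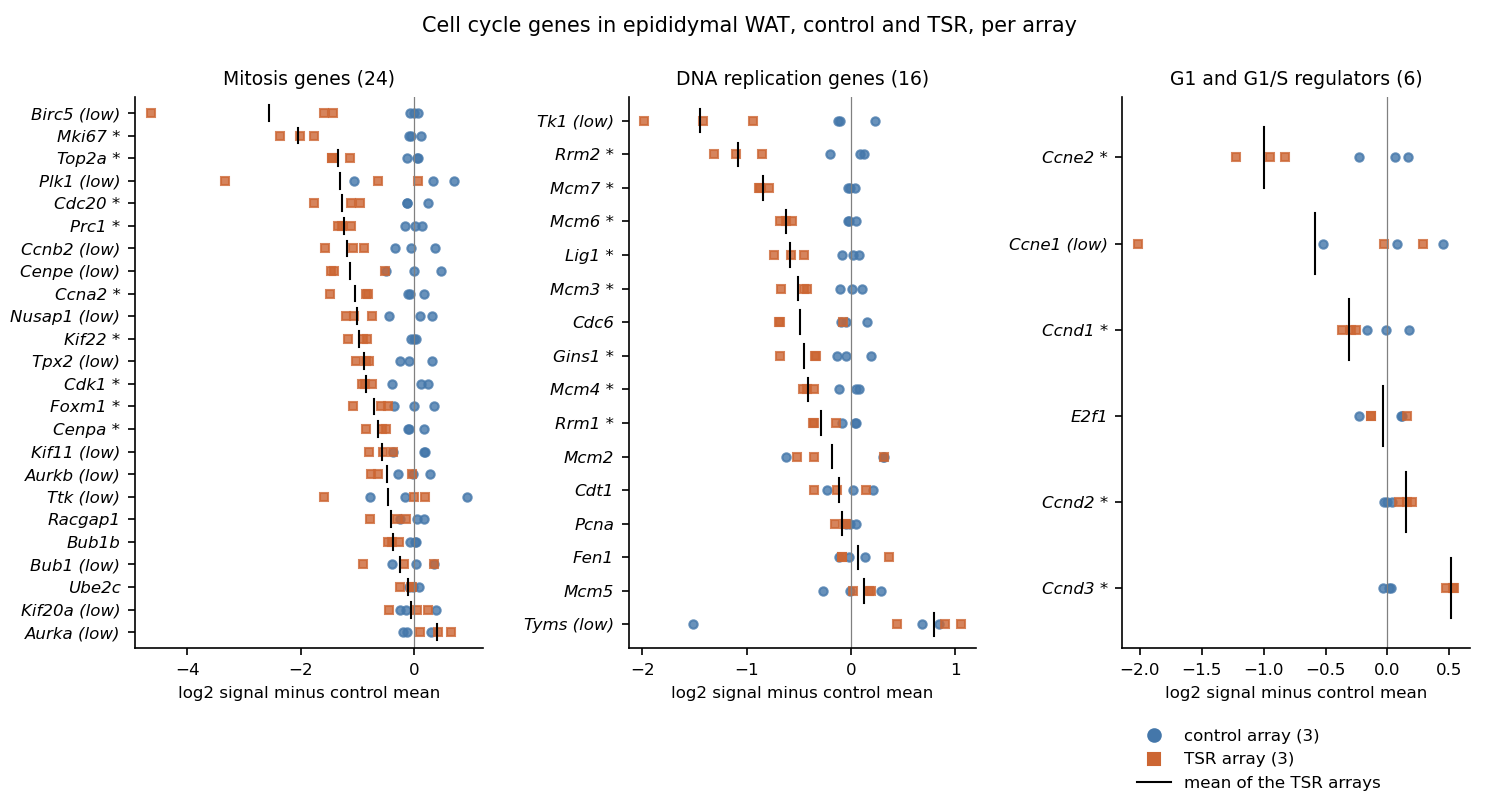
Log2 signal minus the control mean (x axis) for the brightest probe set of each of the 46 measured genes (rows), in 3 control arrays (circles) and 3 TSR arrays (squares), with the TSR mean as a bar. The x axes differ between panels, an asterisk marks the 21 genes that passed the test, and "low" marks genes left out by the filter. Most squares lie left of 0 in the mitosis and replication panels, while Ccnd2 and Ccnd3 lie right of it.

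Most tested mitosis genes fell. Of the 24 measured, 12 passed the filter, 9 of these fell and none rose, beside 23.0% lower and 24.0% higher over all tested genes. By the median, the log2 difference was -0.86 over the 24 genes, and 23 of the 24 were below 0. In 15 genes all TSR arrays lay under all control arrays, and 10 were called lower without the filter. Over all genes these shares were 21.5% and 14.4%. Of the 6 members that passed the test and fell at least 2-fold, 5 were mitosis genes: Mki67, Top2a, Cdc20, Prc1 and Ccna2. A fall of that size that passed the test was found in 121 of the 8619 tested genes (1.40%). Whether fewer cells divided or each held less of these RNAs cannot be told apart in whole tissue.

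Among the genes of chromosome structure, Mki67, which encodes the proliferation antigen Ki-67 of the mitotic chromosome surface, gave signals of 133, 137 and 155 in control and 41.7, 27.4 and 34.99 in TSR. The groups were far apart, and the mean fell from 142 ± 11.8 (SD, n = 3) to 34.7 ± 7.17, a log2 difference of -2.05 (SE 0.19, limma adjusted p = 4.43e-05). This was the largest fall among the members that were tested. Top2a, the topoisomerase that untangles sister chromatids, gave 109.6, 124 and 126 in control and 43.9, 54.5 and 43.7 in TSR. Its log2 difference was -1.34 (SE 0.15, limma adjusted p = 0.000165), and no arrays overlapped between groups. Cenpa, the histone variant of the centromere, gave 91.3, 93.4 and 112 against 69.8, 54.8 and 66.8, and fell by 0.63 on the log2 scale (SE 0.16, limma adjusted p = 0.0105). Kif22, a chromosome-arm motor, fell from 241, 249 and 256 to 133, 141 and 111, a log2 difference of -0.96 (SE 0.11, limma adjusted p = 0.000156). The Kif22 probe set may match several transcripts (its ID ends in _x_at), and the other 2 Kif22 probe sets lay below the filter.

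The kinase of mitotic entry and its cyclins were lower as well. Cdk1 gave 79.1, 55.6 and 86.3 in control and 40.0, 38.4 and 43.5 in TSR, and fell by 0.84 on the log2 scale (SE 0.21, limma adjusted p = 0.00952), though not in the methods' t-test on linear signals (adjusted p = 0.0626). Ccna2 (cyclin A2) gave 101.3, 85.0 and 83.3 against 32.1, 50.1 and 51.1, a log2 difference of -1.04 (SE 0.21, limma adjusted p = 0.00401). Neither gene's groups overlapped. Ccnb2 (cyclin B2), below the filter, gave 51.7, 70.1 and 42.9 in control and 29.3, 25.4 and 18.2 in TSR, also without overlap. Tested without the filter, its log2 difference of -1.17 passed (limma adjusted p = 0.0260). Foxm1, the transcription factor that drives many mitosis genes, gave 77.8, 99.1 and 127 against 66.6, 47.4 and 72.5. It fell by 0.70 on the log2 scale (SE 0.23, limma adjusted p = 0.0316), the lowest control array lying just above the highest TSR array. A Foxm1 probe set below the filter went the other way, from 5.44, 3.66 and 3.24 to 9.79, 42.7 and 8.77, with all arrays but TSR 2 under the 25th percentile of their array. The Foxm1 call was lost in the methods' t-test, without the filter (limma adjusted p = 0.0705) and without control 2, control 3, TSR 1 or TSR 2 (limma adjusted p = 0.0541 to 0.108).

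The anaphase-promoting complex, which ends mitosis, was represented by its activator Cdc20 and its ubiquitin-conjugating enzyme Ube2c. Cdc20 gave 112, 112 and 146 in control and 36.1, 57.0 and 63.6 in TSR, a log2 difference of -1.27 (SE 0.23, limma adjusted p = 0.00190). A second Cdc20 probe set, which is not of the _x_at kind, also passed at -0.64 (limma adjusted p = 0.0162). Ube2c gave 82.0, 76.3 and 72.9 against 74.1, 75.6 and 64.9. These groups overlapped, and the log2 difference of -0.11 (SE 0.14) did not pass (limma adjusted p = 0.566). The Ube2c promoter printed above holds TTTGAA and CCAAT letters, as do those of Mki67 and Top2a.

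In the spindle midzone, where the daughter cells part, Prc1 bundles microtubules. It gave 69.2, 78.7 and 85.3 in control and 30.8, 32.1 and 35.7 in TSR, a log2 difference of -1.24 (SE 0.18, limma adjusted p = 0.000560). The Prc1 probe set may match several transcripts (its ID ends in _s_at), and its second probe set lay below the filter with TSR and control overlapping. Racgap1, a centralspindlin subunit, gave 67.2, 50.4 and 62.1 against 53.7, 48.1 and 34.8. The groups overlapped, and its difference of -0.41 did not pass (limma adjusted p = 0.159). A dimmer Racgap1 probe set did not overlap and passed without the filter at -0.88 (limma adjusted p = 0.0376). Bub1b, a checkpoint kinase homologue, gave 56.5, 56.1 and 52.9 against 40.5, 42.4 and 46.3. Its groups did not overlap, but the difference of -0.36 (SE 0.17) did not pass in limma with the intensity trend (adjusted p = 0.112) and did without the trend (adjusted p = 0.00790).

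The other mitosis genes lay below the filter. Birc5 (survivin), of the chromosomal passenger complex, gave 75.2, 83.4 and 79.3 in control and 3.17, 29.5 and 26.5 in TSR. All TSR arrays lay far below control, TSR 1 most of all, and the exact permutation test gave 0.1, two-sided, the smallest p that 3 against 3 arrays allow. In limma without the filter its adjusted p was 0.0505. Nusap1, a spindle protein, gave 71.5, 61.3 and 42.3 against 27.3, 24.7 and 34.4, and passed without the filter at a ratio of TSR to control of 0.493 (limma adjusted p = 0.0354). Tpx2, which activates Aurora A on the spindle, gave 30.5, 33.9 and 45.0 against 17.8, 20.7 and 19.9. All its TSR arrays were under the 25th percentile of their array (20.9 to 25.3 over the 6 arrays), taken here as the lowest level at which a fold is given. Tpx2 is therefore given as at least 1.51-fold lower, with a limma adjusted p of 0.0611 without the filter.

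Plk1 (a kinase of mitotic entry), Aurkb and Ttk (mitotic kinases), Kif11 (a spindle motor) and Kif20a (a midzone motor) had overlapping groups below the filter. The log2 difference was -1.30 for Plk1, -0.47 for Aurkb and -0.05 for Kif20a. In Kif11 and Ttk all 3 TSR arrays, and in Bub1 (a checkpoint kinase) and Cenpe (a kinetochore motor) all 6 arrays, lay under the 25th percentile, so no fold is given. A dimmer Bub1 probe set, also under that percentile on all 6 arrays, was lower in TSR without overlap (limma adjusted p = 0.0191 without the filter). Aurka (Aurora A) gave 35.6, 25.5 and 26.7 in control and 45.6, 31.3 and 39.1 in TSR. It was the only mitosis gene with a positive difference, 0.40, and its groups overlapped.

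**Figure D2:**
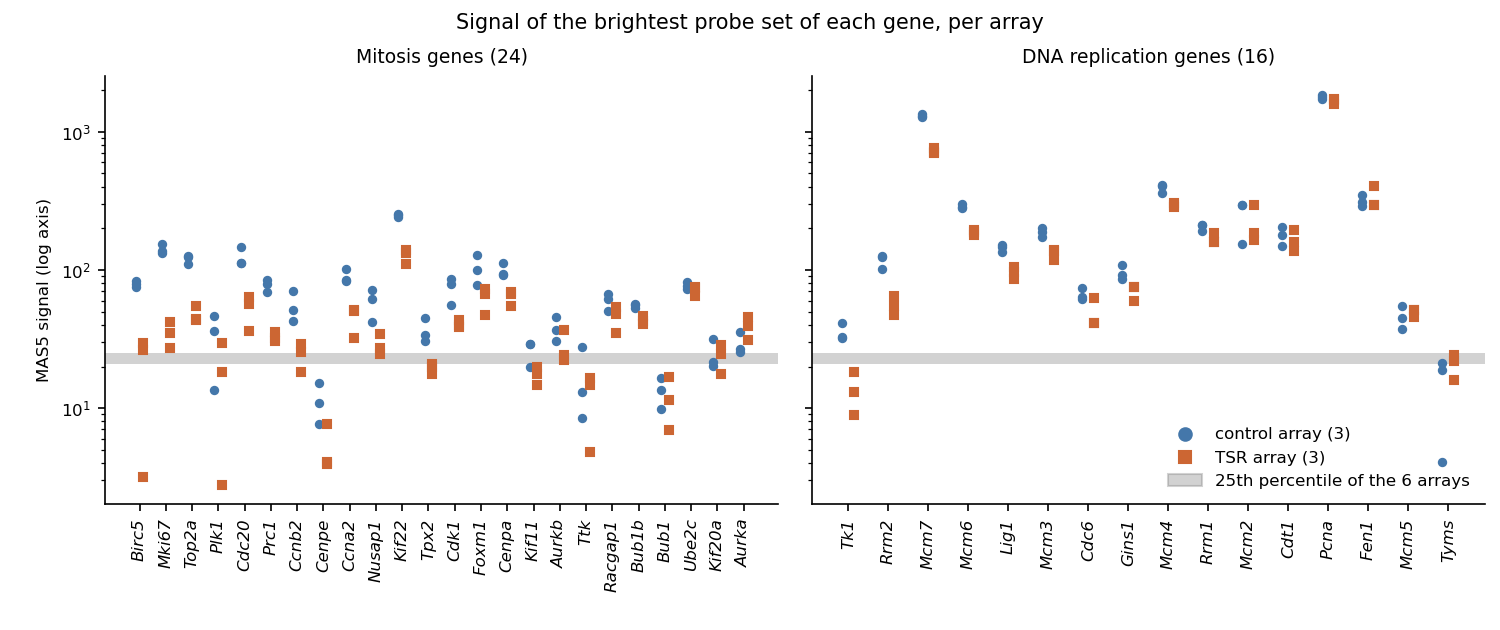
MAS5 signal (y axis, log scale) of the brightest probe set of each mitosis and replication gene (x axis) in 3 control arrays (circles) and 3 TSR arrays (squares). The grey band spans the 25th percentiles of the 6 arrays, 20.9 to 25.3. All TSR arrays were under their own array's 25th percentile for 5 mitosis genes and 1 replication gene (Tk1).

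Of the DNA replication genes, some fell and others did not pass the test. All 16 were measured and 14 passed the filter, of which 8 fell, none rose and 6 did not pass. The shares over all tested genes were 23.0% lower and 24.0% higher. Their median log2 difference was -0.43, with 13 below 0 and 3 above. In 10 genes all TSR arrays lay under all control arrays, and 7 were called lower without the filter, beside 21.5% and 14.4% of all genes. Among the replication genes that passed the test, only Rrm2 fell at least 2-fold.

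The MCM subunits form the ring-shaped helicase that opens DNA at origins. Mcm7 gave 1297, 1342 and 1281 in control and 712, 759 and 708 in TSR. The mean fell from 1306 ± 31.7 (SD, n = 3) to 726 ± 28.5, a log2 difference of -0.85 (SE 0.05, limma adjusted p = 3.28e-06), the smallest adjusted p of any member. All 4 Mcm7 probe sets passed, with differences from -0.85 to -0.29. The brightest may match several transcripts (its ID ends in _s_at), and the only Mcm7 probe set without this limit gave -0.29 (limma adjusted p = 0.0340). Mcm6 gave 281, 298 and 284 against 187, 194 and 179, a difference of -0.62 (SE 0.08, limma adjusted p = 0.000274), and its second probe set fell by 0.79 on the log2 scale. Mcm4 gave 407, 364 and 416 against 286, 294 and 308, and fell by 0.42 on the log2 scale (SE 0.08, limma adjusted p = 0.00205). By these probe sets the groups of the 3 subunits were clearly apart. A second Mcm4 probe set gave 369, 314 and 405 against 291, 179 and 364, overlapped and did not pass (-0.44, limma adjusted p = 0.143). Mcm3 gave 201, 173 and 188 against 117, 137 and 139.9, a difference of -0.51 (SE 0.11, limma adjusted p = 0.00544). That Mcm3 probe set may match several transcripts, and the brightest one without this limit did not pass (-0.16, limma adjusted p = 0.465). A dim Mcm3 probe set, under the 25th percentile on all 6 arrays, was higher in TSR without overlap.

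Mcm2 and Mcm5 belong to the same ring but did not pass the test. Mcm2 gave 295, 294 and 154 in control and 166, 296 and 186 in TSR, so its arrays varied within both groups (-0.19, SE 0.28, limma adjusted p = 0.619). Mcm5 gave 44.9, 37.5 and 55.2 against 51.1, 45.8 and 51.6, with overlap (0.13, SE 0.20, limma adjusted p = 0.640). Of the factors that load and start the helicase, Gins1 gave 91.9, 86.5 and 109 against 59.3, 75.6 and 75.0 and fell by 0.45 on the log2 scale (SE 0.16, limma adjusted p = 0.0455). The Gins1 call was lost in the methods' t-test, without the filter (limma adjusted p = 0.0909) and when any 1 array other than control 2 was left out (limma adjusted p = 0.0587 to 0.150). Cdc6 gave 63.8, 73.5 and 61.9 against 41.0, 41.2 and 62.6. TSR 3 lay within the control range, and the difference of -0.49 did not pass (SE 0.21, limma adjusted p = 0.0882), but did without TSR 3 (limma adjusted p = 0.0232) and with quantile normalization or median centring (limma adjusted p = 0.0432 and 0.0391). Cdt1 gave 179, 150.1 and 204 against 161, 195 and 138, with overlap (-0.12, limma adjusted p = 0.576).

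At the replication fork, Pcna is the sliding clamp, Fen1 trims the flaps of the lagging strand and Lig1 seals the nicks. Pcna gave 1774, 1845 and 1726 in control and 1719, 1706 and 1598 in TSR. Although no arrays overlapped, the difference was only -0.09 (SE 0.05) and did not pass (limma adjusted p = 0.160), except with each array centred on its median (-0.20, limma adjusted p = 0.0220). Fen1 gave 309.8, 291 and 346 against 296, 405 and 296, with overlap (0.06, SE 0.13, limma adjusted p = 0.718). Lig1 gave 146, 151 and 136 against 86.2, 106 and 96.9. Its groups were apart, with a log2 difference of -0.59 (SE 0.12, limma adjusted p = 0.00430).

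Ribonucleotide reductase makes the deoxynucleotides, from a large subunit (Rrm1) and a small, cell cycle dependent subunit (Rrm2). Rrm2 gave 101.2, 124 and 127 in control and 64.8, 47.0 and 54.5 in TSR, a log2 difference of -1.09 (SE 0.17, limma adjusted p = 0.000921). A second Rrm2 probe set fell by 1.45 on the log2 scale (limma adjusted p = 0.000213), so both were apart. Rrm1 gave 210.3, 211 and 193 against 159.9, 159 and 185, a difference of -0.29 (SE 0.10, limma adjusted p = 0.0402). Its second probe set moved the other way, from 59.3, 75.1 and 59.0 to 79.1, 90.1 and 94.4 (0.45, limma adjusted p = 0.0444), so the 2 Rrm1 probe sets disagreed. The call of the brighter one was also lost in the methods' t-test, without the filter (limma adjusted p = 0.0576) and without control 1, control 2, TSR 1 or TSR 2 (limma adjusted p = 0.0978 to 0.122). Tk1 (thymidine kinase 1) lay below the filter with 32.1, 32.6 and 41.0 against 18.3, 8.88 and 13.1. All 3 TSR arrays were under the 25th percentile, so it was at least 1.47-fold lower (limma adjusted p = 0.0245 without the filter). Tyms (thymidylate synthase) gave 4.10, 21.1 and 18.8 against 24.3, 15.96 and 21.9, around that percentile and overlapping.

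Set side by side, the mitosis genes had the lower median. The difference between the medians, replication minus mitosis, was 0.43 on the log2 scale. In the 3 TSR arrays, each against the control mean, the replication median was -0.57, -0.39 and -0.35 and the mitosis median was -0.67, -0.88 and -0.75. The gap was thus 0.10, 0.49 and 0.40, small in TSR 1 and larger in TSR 2 and TSR 3. It was 0.24 without TSR 2 and 0.28 without control 3. It also varied with the handling of low signals: 10 of the 24 mitosis genes and 2 of the 16 replication genes had at least 1 array under the 25th percentile, and with such signals raised to that percentile the gap was 0.18. These medians are descriptions, and no test was made over the members.

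**Figure D3:**
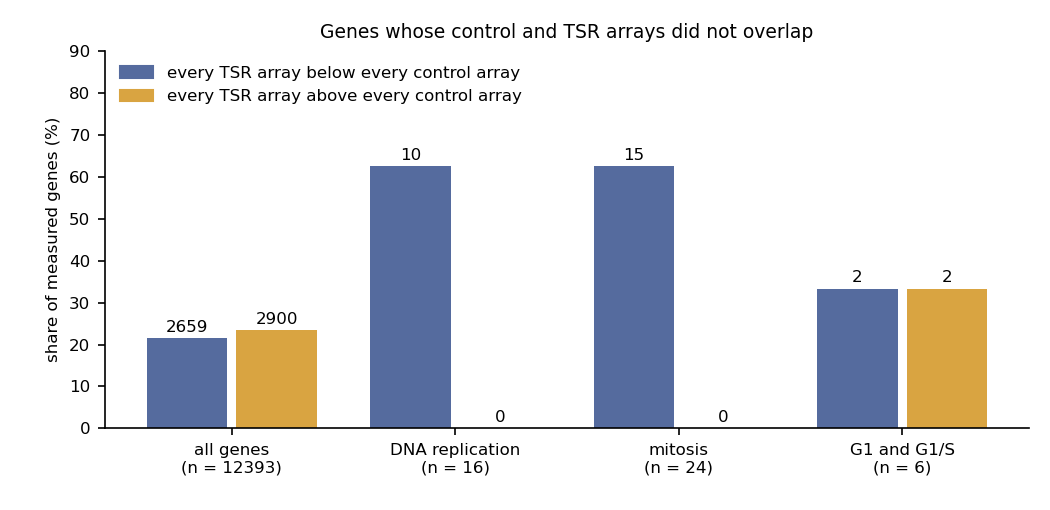
Share of measured genes (y axis, percent) whose 3 TSR arrays all lay below (blue) or all above (orange) the 3 control arrays, for all genes and the 3 groups of cell cycle genes (x axis), with the number of genes on each bar. Separation downward was found for 10 of 16 replication and 15 of 24 mitosis genes, beside 21.5% of all genes.

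The regulators of G1 moved in both directions. Of the 6 genes 5 passed the filter, 2 fell, 2 rose and 1 did not pass. Beside these stand 23.0% lower and 24.0% higher over all tested genes. The D-type cyclins, partners of CDK4 and CDK6, were split. Ccnd1 gave 453, 398 and 358 in control and 336, 310.5 and 327 in TSR, and fell by 0.31 on the log2 scale (SE 0.09, limma adjusted p = 0.0227). Its other 2 probe sets gave -0.44 (limma adjusted p = 0.000959) and -0.14 (limma adjusted p = 0.346). The Ccnd1 call by the brightest probe set was lost in the methods' t-test, without control 1 (limma adjusted p = 0.0735) or TSR 2 (limma adjusted p = 0.0698). Ccnd3 gave 727, 763 and 753 against 1086, 1076 and 1036, a rise of 0.51 (SE 0.05, limma adjusted p = 4.72e-05), with the groups far apart. Ccnd2 gave 4671, 4894 and 4762 against 5334, 5466 and 5092. The rise was small, 0.15 (SE 0.05, limma adjusted p = 0.0248). All 7 Ccnd2 probe sets had differences above 0 and 4 of them passed. With each array centred on its median, however, the brightest one gave 0.04 and did not pass (limma adjusted p = 0.599), and its call was also lost without control 1, control 3, TSR 1 or TSR 2 (limma adjusted p = 0.0632 to 0.0964).

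The E-type cyclins activate CDK2 at the entry into S phase. Ccne2 gave 65.0, 53.2 and 69.7 in control and 32.2, 26.7 and 35.2 in TSR. Its groups were apart, and the TSR mean was 0.501 of the control mean (SE of the log2 difference 0.21, limma adjusted p = 0.00399). Ccne1 lay below the filter with 67.5, 52.0 and 34.5 against 48.4, 60.3 and 12.2, which overlapped. E2f1, the activator of replication genes, gave 52.7, 67.2 and 66.8 against 68.8, 56.5 and 56.4, with overlap (-0.04, SE 0.18, limma adjusted p = 0.885). Its dimmer probe set read higher in TSR, 74.2, 55.0 and 65.2 against 49.3, 29.9 and 47.1, without overlap (0.65, limma adjusted p = 0.0512).

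Further genes of the cycle were read from longer lists. Of 36 other replication genes 33 were tested, 10 fell and 1 rose, beside 23.0% of all tested genes lower, and the median log2 difference over the 36 was -0.12. Without the filter 7 of the 36 were lower, beside 14.4% of all genes. The 4 largest falls among those that passed were in Uhrf1, which carries DNA methylation through replication (-1.02, limma adjusted p = 0.00153), Pole2, a subunit of polymerase epsilon (-0.79, limma adjusted p = 0.00150), Dbf4, the activator of the CDC7 kinase (-0.71, limma adjusted p = 0.0147), and Gmnn, the inhibitor of CDT1 (-0.62, limma adjusted p = 0.00640). The 1 that rose was Orc6, of the origin recognition complex (0.25, limma adjusted p = 0.0156), named after its value was seen, and it no longer passed with quantile normalization or with arrays centred on the median (limma adjusted p = 0.0916 and 0.140). Of 43 other mitosis genes only 19 were bright enough to be tested, 12 fell and none rose, and the median over the 43 was -0.55. Without the filter 15 of the 43 were lower and 1 was higher, beside 14.4% and 16.2% of all genes. Of the 43 differences 4 were above 0. Among the genes bright enough to be tested, the 4 largest falls were in Hmgb2, a chromatin protein (-0.87, limma adjusted p = 0.00239), Cks2, a CDK subunit (-0.82, limma adjusted p = 0.00534), Ncaph, a condensin subunit (-0.77, limma adjusted p = 0.00106), and Incenp, of the passenger complex (-0.76, limma adjusted p = 0.000132). Genes below the filter, 24 of the 43, are not ranked.

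The brakes of the cycle were divided: of 26 genes 24 were tested, 10 fell and 8 rose. Over all tested genes 23.0% were lower and 24.0% higher. Gadd45a, a growth arrest gene, gave 163, 206 and 171 in control and 937, 1021 and 918 in TSR, a rise of 2.42 on the log2 scale (SE 0.09, limma adjusted p = 4.37e-07). Cdkn1a, which encodes the CDK inhibitor p21, gave 339.8, 353 and 397 against 755, 837 and 792, a rise of 1.13 (SE 0.07, limma adjusted p = 6.24e-06). Neither gene's groups overlapped. Tob1, an antiproliferative factor, rose by 0.71 (SE 0.08, limma adjusted p = 0.000150). Wee1, the kinase that holds CDK1 inactive, fell by 0.70 on the log2 scale (SE 0.13, limma adjusted p = 0.00246). Of 9 further G1 regulators 6 were tested: Myc fell by 0.78 on the log2 scale (SE 0.11, limma adjusted p = 0.000435) and Tfdp1, the partner of E2F factors, rose by 0.41 (SE 0.05, limma adjusted p = 0.000246). With quantile normalization or median centring 3 of these 6 were lower and 1 higher.

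**Figure D4:**
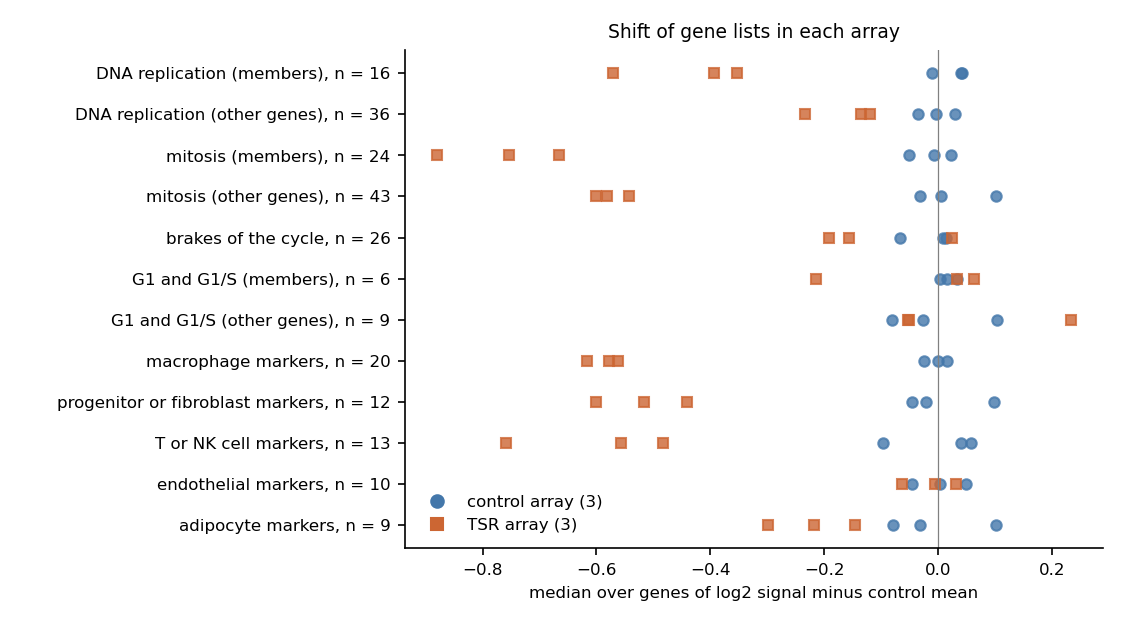
Shift of each gene list on the log2 scale, as the median over its genes of signal against the control mean (x axis), in 3 control arrays (circles) and 3 TSR arrays (squares), for cell cycle lists and cell type marker lists (rows, with the number of genes measured). The TSR arrays of the replication, mitosis, macrophage, progenitor, T or NK cell and adipocyte lists lie left of their control arrays, while those of the endothelial list overlap them.

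Macrophage, progenitor and T or NK cell markers were lower in TSR, as the cell cycle genes were, while B or plasma cell markers were not. The counts of these markers stand beside 23.0% lower and 24.0% higher over all tested genes. Of 20 macrophage markers 19 were tested, 18 fell and none rose, and their summed signal was 34823 to 35972 in control and 22512 to 22892 in TSR. Adgre1 (F4/80) fell by 0.57 and Cd68 by 0.65 on the log2 scale (limma adjusted p = 0.000100 and 2.50e-05). Trem2, below the filter, went the other way (1.27, without overlap) and was not called in the test without the filter. Of 12 markers of progenitors and fibroblasts 11 were tested and 8 fell, Pdgfra among them (-0.36, limma adjusted p = 0.00120). The 1 that rose was Pi16 (2.21, limma adjusted p = 5.24e-06), and the summed signal was 37353 to 41201 in control and 25004 to 27451 in TSR. All 3 T or NK cell markers above the filter, of 13 measured, fell, with a sum of 618 to 689.8 in control and 391 to 434 in TSR. The T or NK cell markers were dim, and 2 of the 13, Cd4 and Cd8b1, lay under the 25th percentile on all 6 arrays. Summed signals of the mitosis genes were 1634 to 1757 in control and 896 to 932 in TSR, and those of the replication genes 5341 to 5494 and 4113 to 4486. The part of these cell types in the fall of the cell cycle genes was not tested.

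The remaining lists varied, and their counts stand beside 23.0% lower and 24.0% higher over all tested genes. Of 10 endothelial markers 4 fell and 3 rose, with sums of 9469 to 9874 in control and 9120 to 9580 in TSR. Of 9 adipocyte markers 6 fell and 3 rose, Lep among the latter (0.65, limma adjusted p = 5.15e-05), and the sums were 96271 to 114410 in control and 81011 to 94548 in TSR. With quantile normalization none of the adipocyte markers fell and 4 rose. Adipoq (adiponectin), the defining marker of the labelled tissue, was present on every array, at 15545 to 20944 in control and 11541 to 14533 in TSR. Of 6 B or plasma cell markers 2 of the 3 tested rose, with a median log2 difference of 0.45 over the 6. Of 7 erythroid markers 1 of the 2 tested fell, and the median over the 7 was -0.40. Mesothelial markers gave 2 lower and 1 higher of 6. Testis germ cells divide too and lie near this fat pad. Their markers were below the filter for 13 of 15, and of the other 2 Sycp3 rose (0.38, limma adjusted p = 0.0318), though not with quantile normalization or median centring. All 4 epididymis markers measured were below the filter. One of them, Adam7, gave 3.68, 8.90 and 15.9 in control and 46.4, 31.8 and 35.7 in TSR, without overlap, and was at least 1.69-fold higher (limma adjusted p = 0.0220 without the filter).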

How the data were processed

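Epididymal WAT of 3 control and 3 TSR samples was profiled on Affymetrix mouse expression arrays. The methods name RNAlater and a lipid tissue kit, the labels freezing in liquid nitrogen and Trizol. The authors normalized each array with the MAS5 algorithm in Expression Console (version not given in the sources used here) and deposited MAS5 signal values, which are linear intensities. No detection calls were used here.

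The deposited intensities were taken to log2 without further scaling. Of 22690 probe sets, 64 controls and the lowest 35% by mean log2 signal were left out, and 14707 were tested in R 4.3.3 with limma 3.58.1 (lmFit, eBayes with intensity trend, two-sided, Benjamini-Hochberg, threshold 0.05), after the code was tested on simulated data. The study's own expression filter could not be applied, so a filter on the mean stands in for it. Gene symbols came from the platform annotation: 20380 probe sets had 1 symbol and 691 several, and the latter were not used. A gene was read by its probe set with the highest mean over the 6 arrays. Probe sets that disagree are given beside it for Mcm3, Mcm4, Rrm1, Foxm1, E2f1, Ccnd1 and Bub1, among others. Not all are given, for example those of Cdc20 and Kif11 below the filter that were higher in TSR. Probe sets whose IDs end in _s_at or _x_at may match several transcripts. Where all arrays of a group were below the 25th percentile of their array, "at least" folds compare the brighter group with the higher of that percentile and the measured signal.

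All 47 members were described, and of each other list at most the 4 called genes with the largest difference, any further gene being named as chosen after its value was seen. Marker genes named are examples chosen after their values were seen. The members, the lists and the promoter letters were chosen with earlier results of these data known. Promoters came from RefSeq (GRCm38.p6), with none for Tpx2, Ccna2, Gins1, Foxm1, Ccne2, Ccnd2, Kif20a, Aurkb, Ccnd1 and Mcm4. The alternatives covered the test, the scaling, the filter, low signals, the choice of probe set, the replicate number and each array left out in turn. Leaving out the _s_at and _x_at probe sets was chosen after seeing the data.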

Additional observations from a re-analysis of the deposited data

How the results depend on the processing

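Over the alternatives, 721 of 781 values for single members kept their direction and their side of the threshold or moved by less than the replicate spread. These values include members left out by the filter, which had no side of the threshold where they were not tested. The count is therefore no measure of how stable the calls were. Leaving out 1 array gave 5600 to 6391 probe sets called (6850 with all arrays), 6 to 8 replication genes lower (8), 8 to 9 mitosis genes lower (9), 1 to 2 members higher (2) and a replication minus mitosis median of 0.24 to 0.46 (0.43). When the filter removed the lowest 50%, 5 replication genes and 1 mitosis gene were called lower, since only 9 and 1 genes were then tested. Without the intensity trend or with median centring, 1 member was called higher, Ccnd2 being lost. The difference of the medians was 0.18 with low signals raised to the 25th percentile. Median centring changed the split of called probe sets to 4363 lower and 2452 higher, and moved the median of all tested probe sets from 0.04 to -0.07 on the log2 scale.

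Directions reversed for members that did not pass the test and for Rrm1, which did. Fen1 was -0.0263 with quantile normalization, -0.0438 with median centring and -0.0875 to 0.1381 with 1 array left out, below 0 without TSR 2. With 1 array left out, Mcm5 ranged from -0.0097 (without control 2) to 0.2689, Cdt1 from -0.2453 to 0.0035 (without TSR 3) and E2f1 from -0.1509 to 0.0238, above 0 without control 2, control 3, TSR 2 or TSR 3. Over the mean of its probe sets E2f1 was 0.3048, and Rrm1, called lower by the brightest, was 0.0822. The methods' t-test called 2304 lower and 2918 higher probe sets on linear signals after Benjamini-Hochberg, with 6 replication and 8 mitosis genes lower, and 6 and 9 on log2 signals. It lost Foxm1, Gins1, Rrm1 and Ccnd1 on both scales and Cdk1 on linear signals, and gained Bub1b on both. Without _s_at and _x_at probe sets, 7 replication and 7 mitosis genes were lower, Kif22 and Prc1 then having no probe set above the filter. Deviations of same-numbered arrays correlated at 0.02, 0.19 and 0.17, and those of differently numbered arrays at -0.22 to 0.06. Whether the replicate numbers pair the arrays cannot be told from so few arrays. With the replicate number as a block, 7434 probe sets, 7 replication genes and 9 mitosis genes were called, and Rrm1 was lost (limma adjusted p = 0.0582). Causes of these shifts were not tested beyond the smaller number of genes or arrays that an alternative leaves.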
